A study of Mus musculus with 60 samples.

Results

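The comparison of estrogen added to progesterone set the mammary glands of 5 ovariectomized mice given both hormones (E+P) against those of 4 ovariectomized mice given progesterone alone (P). The 9 animals were chosen by the titles of their samples from the 20 animals of the study, and all 36701 non-control probe sets of 3 Affymetrix mouse array types (A, B and C of the MG-U74 set) entered. P animals had 1 mg progesterone a day, and E+P animals had 2 µg 17-beta-estrogen with 1 mg progesterone a day, by intraperitoneal injection for 4 days. Lymph nodes had been taken out of the glands when they were collected, and the labels name neither the strain nor the age of the mice. The study also held 4 animals given 100 µl sesame oil (V) and 4 given 2 µg estrogen alone (E). A further 3, whose fat pads had been freed of epithelium (E+P CFP), had both hormones at the E+P doses. These groups too were injected intraperitoneally for 4 days. The titles of E name estrogen, and those of E+P and E+P CFP name 17-beta-estrogen. All 20 animals had been ovariectomized. The titles call the animals of a group biologic replicates, with no word on cages, days or batches. A short description beside the E+P, E+P CFP and V samples names progesterone as the treatment, and the grouping follows the titles and the treatment protocol.

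Estrogen and progesterone act through the nuclear receptors Esr1 and Pgr, which in the mammary gland are carried by a part of the luminal epithelial cells and, for Esr1, by stromal cells. Estrogen drives the growth of ducts and raises Pgr. Progesterone drives side branching and alveolar budding, and much of the cell division that follows takes place in neighbouring epithelial cells, which receive signals such as Areg, Wnt4 and Tnfsf11 from the receptor-positive cells.

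Signal intensities on a linear scale were compared as log2 values, so a difference of 1 is a doubling. Values under the 25th percentile of an array type were set to that percentile (the floor: 13.6, 28.6 and 19.8 for types A, B and C), and 23067 probe sets, which represent 12234 genes, were bright enough to be tested. The trimmed mean of the deposited values lay between 150.03 and 150.1 on all 60 arrays, as after scaling to a common level. It is therefore no sign of likeness between arrays. The medians of single arrays ran from 51.6 to 66.4 on type A, from 79.6 to 88.3 on B and from 48.4 to 67.8 on C. The 3' to 5' signal ratio of the Gapdh control probe sets, a sign of RNA integrity, was 2.20 ± 0.461 (SD, n = 5) in E+P and 2.07 ± 0.540 (SD, n = 4) in P, with p = 0.659 in a two-sided exact permutation test whose smallest possible p is 0.00794. The glands held epithelium in both groups. Krt18, a keratin of luminal cells, measured 918, 1096, 1151 and 1033 in the P animals and 1502, 1759, 1932, 1457 and 1844 in the E+P animals, against 18.2, 19.7 and 13.6 (the floor) in the epithelium-free fat pads. All 9 glands were thus far above the pads.

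After estrogen was added, 83 of 23067 probe sets passed an adjusted p of 0.05 (0.36%; limma with Benjamini-Hochberg adjustment), 64 of them higher (0.277%) and 19 lower (0.0824%). Counted with 1 probe set a gene, 64 of 12234 genes passed (0.523%), of which 49 rose (0.401%) and 15 fell (0.123%). The largest rises among named genes were those of Gm15867, Sprr2b, Crym and Pbk, and the largest falls those of Kcnk12, Timp4 and Zbtb16. Those that rose included Pbk, Stmn1 and Ccnb2 of mitosis and Elf3, Krt7, Kit and Cldn4 of luminal epithelium, and those that fell included Timp4, Timp3, Dbp and Nr1d1. Of the 49 genes that rose, 31 differed by at least 2-fold and 11 by at least 4-fold, and of the 15 that fell, 9 and 1 did. All E+P animals lay above all P animals for 45 of the 49 and below them for all 15. Over all genes tested these shares were 2.8% and 1.53%. The genes were called on the same animals, so this separation largely follows from the call and is no further support for it. The median log2 difference over all 12234 genes was 0.0117, and 2643 probe sets (11.5%) had an unadjusted p under 0.05. The count depended on single animals, from 19 probe sets without E+P 2 to 107 without E+P 4.

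**Figure D1:**
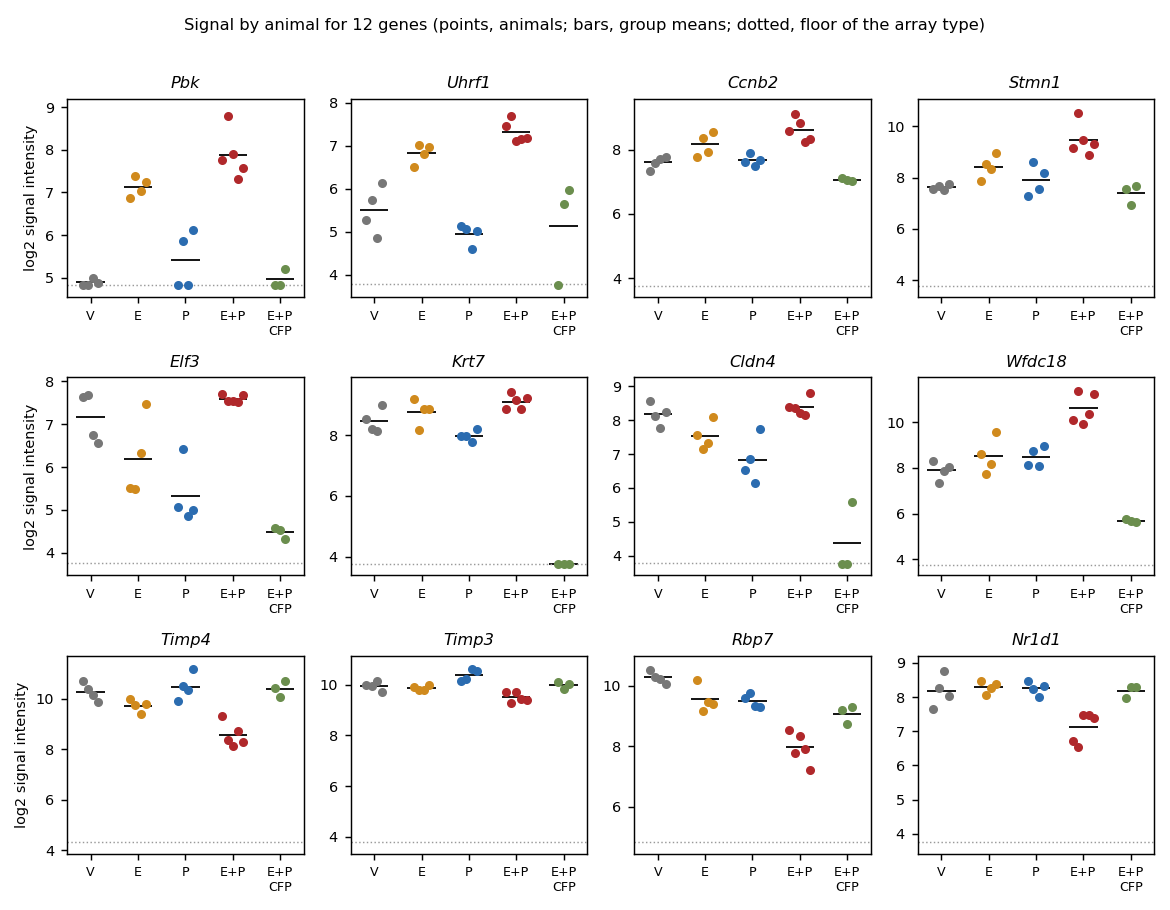
Log2 signal intensity of 12 genes in every animal (points) with group means (bars) and the floor of the array type (dotted line), for V, E, P, E+P and E+P CFP. For each of the 12 genes the 5 E+P animals and the 4 P animals do not overlap, with the first 8 genes higher and the last 4 lower in E+P.

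Most genes of mitosis were higher in E+P, and few passed the test. Of 45 tested genes of mitosis and G2, 3 rose and none fell (over all genes 0.401% rose), the median log2 difference was 0.764, and 40 were above 0 (6307 of all 12234 genes were). The genes that rose were Pbk, a kinase active in mitosis, Stmn1, which destabilises microtubules, and Ccnb2, a B-type cyclin that brings cells into mitosis. Pbk measured 28.6 (the floor), 58.4, 28.6 and 69.5 in P and 216, 442, 238, 159 and 191 in E+P. Its lowest E+P animal stood above its highest P animal, and the log2 difference was 2.45 ± 0.32 (SE; adjusted p = 0.00102), a lower bound since 2 P animals were at the floor. A second Pbk probe set, of a kind that matches several transcripts, gave -1.16 (adjusted p = 0.272). Stmn1 measured 154, 385, 186 and 288 in P and 567, 1462, 705, 464 and 633 in E+P, a difference of 1.56 ± 0.29 (adjusted p = 0.0202). Ccnb2 measured 197, 239, 179 and 205 in P and 380, 551, 454, 302 and 320 in E+P, a difference of 0.94 ± 0.18 (adjusted p = 0.0205). The groups did not overlap for either gene. The calls of Stmn1 and Ccnb2 were lost without P 1, P 3, E+P 2 or E+P 3, with adjusted p up to 0.0833 for both, while Pbk passed whichever of the 9 animals was left out.

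The other mitosis genes missed the threshold, some with differences of like size. Mki67, the proliferation antigen, measured 36.2, 86.0, 46.3 and 79.3 in P and 186, 410, 231, 102 and 130 in E+P, without overlap (difference 1.69 ± 0.39, adjusted p = 0.0645; 0.14 in a second probe set). Ckap2, a spindle protein, gave 2.28 (adjusted p = 0.0571), Bub1b, of the spindle checkpoint, 1.6 (0.0616), Cdk1, the kinase partner of B-type cyclins, 1.74 (0.087) and Top2a, a topoisomerase that untangles DNA in mitosis, 1.5 (0.215). Other members lay near 0 or below it: Ube2c gave -0.01, Mybl2 0.05, Plk1 -0.70 and Foxm1 -0.57, none past the threshold. Averaged over the list, the deviation from the mean of all 20 animals ran from -0.30 to 0.09 in P and from 0.27 to 1.29 in E+P. E+P 2 was the highest animal, and without it 1 gene of the list rose and the median was 0.612.

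DNA replication genes were higher too, with a single call. Of 37 tested, 1 rose and none fell (0.401% of all genes rose), with a median of 0.443 and 33 above 0 (6307 of all 12234 genes were). The gene that rose was Uhrf1, which binds newly copied DNA and passes on its methylation. It measured 34.8, 33.3, 24 and 32.1 in P and 176, 206, 138, 143 and 145 in E+P. The P animals lay close together and far below the E+P animals, and the difference was 2.37 ± 0.34 (adjusted p = 0.00231); a second probe set, which matches several transcripts, gave 1.03 (0.54). Tk1, the thymidine kinase of S phase, gave 2.29 (adjusted p = 0.0524), with P 2 at 154 above E+P 4 at 142, and its 4 further probe sets ran from -0.21 to 0.55. Rrm1, a subunit of ribonucleotide reductase, gave 2.31 (0.0648; 0.37 in a second probe set), and Mcm5, of the replicative helicase, gave 1.47 (0.0702; 0.03 in a second probe set). Pcna, the sliding clamp of the polymerases, gave 0.39 and Mcm6 gave 0.14, both far from the threshold. Outside the list, the linker histone gene H1f2 rose from 176, 230, 219 and 229 in P to 342, 293, 345, 360 and 337 in E+P (0.66 ± 0.11, adjusted p = 0.0136; 0.0975 in a fit to the 9 animals alone). Of 24 cyclins, kinases and inhibitors of G1, 0 passed by limma and 7 had an unadjusted p under 0.05 (1566 of all 12234 genes did); the median was 0.0818. Ccnd1, the G1 cyclin, gave 0.45 (adjusted p = 0.381).

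Cell cycle genes are known for CCAAT boxes (bound by NF-Y), cell cycle homology regions (TTTGAA in the form searched) and E2F sites in their promoters. The 250 bases upstream of the start are therefore shown for Ccnb2, Mki67 and Uhrf1, taken from RefSeq on build GRCm38.p6. They are examples picked by no set rule, and Mki67 had missed the threshold. Capitals mark TTTGAA, then the E2F form TTTCGCGC, and CCAAT on either strand (read as ATTGG on the other), and each sequence is given 5′ to 3′ on the gene's strand. The Ccnb2 stretch is chr9:70421555-70421804 on the minus strand, that of Mki67 is chr7:135716380-135716629 on the minus strand, and that of Uhrf1, from the second of its listed starts, is chr17:56304063-56304312 on the plus strand.
Ccnb2: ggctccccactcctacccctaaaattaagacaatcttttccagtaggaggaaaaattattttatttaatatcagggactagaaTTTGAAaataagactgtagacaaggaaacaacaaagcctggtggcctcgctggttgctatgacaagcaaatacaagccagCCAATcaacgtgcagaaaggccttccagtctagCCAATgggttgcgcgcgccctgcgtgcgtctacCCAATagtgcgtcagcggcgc
Mki67: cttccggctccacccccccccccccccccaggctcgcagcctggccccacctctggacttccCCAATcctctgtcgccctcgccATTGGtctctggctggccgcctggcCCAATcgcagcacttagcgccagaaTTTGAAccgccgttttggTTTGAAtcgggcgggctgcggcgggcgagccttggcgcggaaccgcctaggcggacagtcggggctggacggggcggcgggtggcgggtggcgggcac
Uhrf1: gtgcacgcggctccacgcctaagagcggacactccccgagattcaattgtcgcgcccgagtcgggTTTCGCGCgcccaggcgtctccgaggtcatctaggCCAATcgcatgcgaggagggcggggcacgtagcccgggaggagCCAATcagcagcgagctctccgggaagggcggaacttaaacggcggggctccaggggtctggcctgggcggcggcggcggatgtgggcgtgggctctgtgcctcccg
Ccnb2 has CCAAT at -87, -54 and -21 from the start, and TTTGAA at -167 and, beyond the stretch shown, at 4. Uhrf1 has TTTCGCGC at -185 and CCAAT at -150 and -107. Over the 37 of 49 genes that rose and have a window, from 250 bases before to 50 after the start, CCAAT on either strand was in 16 (43.2%), against 42.4% of the 9747 genes tested that have one. TTTGAA was in 7 (18.9%, against 14.7%), and an E2F form (TTTGGCGC, TTTCGCGC or TTTCCCGC) in 1 (2.7%, against 3.74%). The palindromic estrogen response element, GGTCA and its complement TGACC with 3 bases between them, was in 0 of 37 genes that rose, 0 of 12 that fell and 0 of all 9747 (23 of all 32851 windows of the table hold it, 0.07%), and its arm GGTCA was in 40.5% of those that rose, 41.7% of those that fell and 42.5% of all. The box GGGCGG, bound by Sp1, was in 75.7% of those that rose and 65.5% of all. The E box CACGTG, which was added after the clock genes were seen, was in 18.9% of those that rose, 8.33% of those that fell and 11.3% of all. TTTGAA was in 0 of the 12 that fell. These shares are descriptions and were not tested.

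Genes of luminal epithelium were higher in E+P than in P. Of 26 tested luminal markers 4 rose and none fell (0.401% of all genes rose). The median log2 difference was 0.768, 21 were above 0 (6307 of all 12234 genes were), and for 10 the animals did not overlap upward (2.8% of all genes). The genes that rose were Elf3, an epithelial ETS factor, Krt7, a luminal keratin, Kit, a receptor tyrosine kinase of luminal progenitors, and Cldn4, a tight junction claudin. Krt7 measured 250, 251, 219 and 295 in P and 463, 682, 570, 459 and 590 in E+P. Each E+P animal was thus above each P animal (difference 1.12 ± 0.19, adjusted p = 0.0136; lost without P 3 or E+P 2, at most 0.0549). Elf3 measured 33.8, 85.7, 29.0 and 31.8 in P and 207, 185, 187, 183 and 207 in E+P. The E+P animals were nearly level, P 2 stood apart from the other P animals, and the difference was 2.26 ± 0.36 (adjusted p = 0.00844). A second Elf3 probe set gave 0.11 (0.887). Cldn4 gave 1.57 ± 0.33 (adjusted p = 0.0424), from 71.3 to 213 in P and from 283 to 449 in E+P, and Kit gave 0.90 ± 0.18 (0.0286), from 141 to 259 and from 271 to 545. Kit is also a mast cell marker, and the 10 mast cell and granulocyte markers, Kit included, had a median of -0.198. The Cldn4 call was lost without any animal but P 4 and E+P 4 (adjusted p up to 0.136). The Kit call was lost without P 1, P 2, P 4, E+P 2, E+P 3 or E+P 5 (up to 0.0737). The mean log2 signal of Cldn4 was 8.18 in V, 7.53 in E, 6.81 in P and 8.38 in E+P, so E+P was near V.

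Members of the luminal list differed widely among themselves. Keratins short of the threshold were Krt8 at 0.74 (adjusted p = 0.101), Krt18 at 0.69 (0.0761) and Krt19 at 0.84 (0.0746), and the claudins were Cldn7 at 1.02 (0.0702) and Cldn3 at 0.99 (0.132). The epithelial adhesion genes Epcam and Cdh1 gave 0.07 and -0.20, and the luminal hormone-sensing factor Foxa1 gave 0.14 (adjusted p 0.923, 0.562 and 0.859). The mean deviation over the list ran from 0.00 to 0.26 in P and from 0.56 to 1.01 in E+P, against -2.61 to -2.57 in the epithelium-free pads. In a whole gland, fewer cells of a type and less RNA per cell cannot be told apart, and this holds for every list here. The luminal list moved with the groups, so its part in the cell cycle differences, and theirs in it, was not tested. Without E+P 2, 1 luminal gene rose and the median was 0.69. Basal and myoepithelial markers gave a median of 0.108 with 0 of 18 past the threshold by limma. Of these 18, 8 had an unadjusted p under 0.05 (1566 of all 12234 genes did). Trp63, the basal transcription factor, gave 0.57 (adjusted p = 0.348) and Acta2, smooth muscle actin, 0.44 (0.413).

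**Figure D2:**
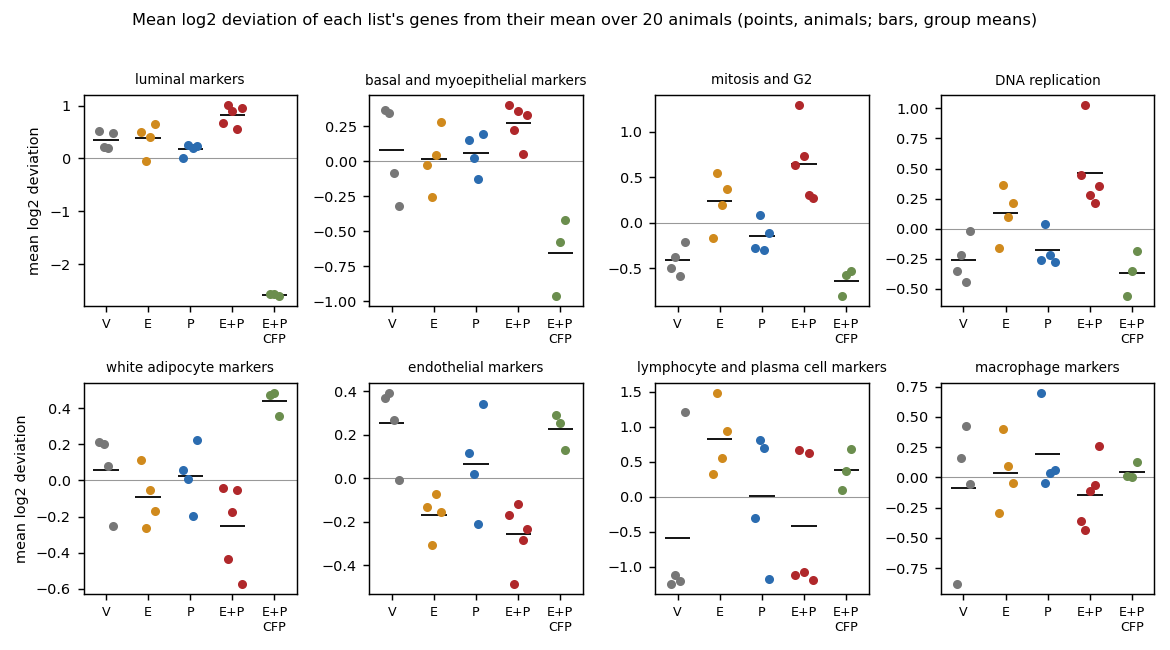
Mean log2 deviation of the genes of 8 lists from their mean over the 20 animals, for each animal (points) with group means (bars). E+P lies wholly above P for luminal markers, mitosis and DNA replication, and the lymphocyte list ranges from -1.19 to 0.67 within E+P and from -1.18 to 0.81 within P.

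Junction and surface genes of epithelium were also among those that rose. Of 27 epithelial junction genes, 2 rose (Tjp3 and Cldn4, the latter also in the luminal list) and none fell. Over all genes 0.401% rose, and the median of the list was 0.295. Tjp3, a scaffold protein of tight junctions, measured 28.6 (the floor), 39.7, 28.6 and 101 in P and 161, 290, 171, 150 and 188 in E+P. P 4 was the highest P animal and still below every E+P animal (2.13 ± 0.39, adjusted p = 0.0174; lost without P 1, P 3 or E+P 2, up to 0.0662), though 2 further Tjp3 probe sets gave 0.59 and -0.30. Pard6b, a cell polarity protein, gave 2.01 ± 0.43 (adjusted p = 0.0411), from 28.6 to 40.8 in P and from 52.8 to 234 in E+P, and was lost without 7 of the 9 animals in turn (up to 0.138). The remaining surface genes were outside the naming rule and were picked after their values were seen. St14, a membrane serine protease, rose from 223, 323, 158 and 339 to 447, 931, 416, 538 and 690 (1.21 ± 0.23, adjusted p = 0.0208). Cdcp1, a membrane glycoprotein, rose from 243, 212, 214 and 220 to 416, 458, 551, 333 and 460 (0.98 ± 0.18, 0.0183). Slco2a1, a prostaglandin transporter, rose from 312, 258, 286 and 258 to 599, 598, 518, 612 and 692 (1.12 ± 0.15, 0.00103). In each of these 3 genes the lowest E+P animal was above the highest P animal. Cd24a, a luminal surface protein, lay between 461 and 771 in P and between 900 and 1545 in E+P (1.01 ± 0.22, adjusted p = 0.05, just inside the threshold before rounding).

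Milk genes did not move together. Of 20 milk and secretory genes 1 rose and none fell, with a median of -0.00934. Wfdc18, a secreted protein of the whey acidic protein family, measured 280, 434, 275 and 501 in P and 1105, 2672, 961, 1337 and 2445 in E+P. Every E+P animal was above every P animal (2.12 ± 0.33, adjusted p = 0.0065), and the call held without any of the 9 animals. Btn1a1, a protein of the milk fat globule, gave -1.44 (adjusted p = 0.156), from 114 to 250 in P and from 25.5 to 147 in E+P. Xdh, which also coats milk fat, gave -0.81 (0.253), Csn3, a casein, -0.46 (0.728), Lalba, of lactose synthesis, -0.21 (0.931) and Csn1s1, another casein, 0.01 (0.999). Lactotransferrin, Ltf, an iron-binding protein and a classic estrogen target in the uterus, measured 435, 362, 297 and 531 in P and 361, 192, 320, 366 and 248 in E+P, with overlap (-0.46 ± 0.24, adjusted p = 0.5).

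The other large rises belonged to no single list. The probe set with the largest difference has no gene symbol in the annotation (it is on type A) and was picked after its values were seen. It measured 16.1 and then 13.6 (the floor) in the other 3 P animals, against 122, 782, 113, 96.3 and 716 in E+P (4.06 ± 0.55, adjusted p = 0.00217). It stood at the floor in all 3 epithelium-free pads, between 13.6 and 53.5 in V and between 359 and 733 in E. Every gland given estrogen was thus above every other sample. Crym, which binds thyroid hormone, measured 19.0 and the floor of 13.6 in the other 3 P animals, and 148, 56.4, 101, 109 and 54.9 in E+P (2.56 ± 0.44, adjusted p = 0.0136, a lower bound; 0.0906 with the floor at the 10th percentile). Sprr2b, a small proline-rich protein of keratinising epithelium whose probe set can match other members of its family, measured 35.1, 34.5, 51.0 and 20.9 in P and 174, 423, 114, 122 and 334 in E+P (2.59 ± 0.47, 0.0174; lost without P 4, E+P 2 or E+P 5, up to 0.0619). The predicted gene Gm15867 gave 2.80 ± 0.51 (0.0144; 0.0568 without P 3). P 4 was at 70.7 and the other P animals at 21.5 or less, against 161 to 278 in E+P. The difference is a lower bound, since 2 P animals were at the floor.

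Signalling genes that rose included Igfbp2, Egr2, Ndp and Mycl. Igfbp2, which binds insulin-like growth factors, measured 61.4, 49.0, 38.1 and 66.5 in P and 223, 177, 114, 109 and 96.4 in E+P. The groups did not overlap (1.38 ± 0.28, adjusted p = 0.0328), but the call was lost without P 1, P 2, P 3, E+P 1, E+P 2 or E+P 3 (up to 0.108), and it was the only one of 16 genes of that axis to pass; Igf1 gave -0.25 and Igf1r -0.39. A second Igfbp2 probe set gave 0.26 (adjusted p = 0.888). Egr2, an immediate early transcription factor, measured 103, 109, 96.4 and 61.2 in P and 224, 440, 208, 162 and 348 in E+P (1.52 ± 0.31, 0.039). It was lost without any animal but E+P 4 (up to 0.112), and Egr1, Fos and Myc, of the same list, gave 0.77, 0.77 and 0.80 (adjusted p 0.129, 0.261 and 0.298). Of its 22 immediate early genes 17 were above 0 and 10 had an unadjusted p under 0.05 (6307 and 1566 of all 12234 genes). Their median was 0.364, and their mean deviation ran from -0.16 to 0.05 in P and from 0.06 to 0.58 in E+P. Ndp, a ligand of the receptor Fzd4, gave 2.06 ± 0.43 (0.0411), from the floor of 13.6 to 16.3 in P and from 44.3 to 76.0 in E+P, and was lost without any animal but E+P 4 (up to 0.1). Of 26 Wnt ligands and modulators, 0 passed by limma and 4 had an unadjusted p under 0.05. Their median was 0.228, and their mean deviation ran from -0.12 to 0.15 in P and from 0.16 to 0.47 in E+P, with a narrow gap. Wnt5b gave 1.02 (adjusted p = 0.301), Wnt10b 1.26 (0.361), and Wnt4, a progesterone-induced signal, 0.03 (0.974), with a change of sign to -0.04 under median scaling. Mycl, of the Myc family, gave 1.76 ± 0.32 (adjusted p = 0.018), from 20.3 to 71.4 in P and from 101 to 155 in E+P. The Mycl call was lost without P 1, P 2 or E+P 2 (up to 0.0619). Its mean log2 signal was 7.04 in V, 7.47 in E, 5.28 in P and 7.04 in E+P. Its E+P animals thus stood at the level of V, with P below both. Mvd, of the mevalonate pathway to cholesterol, gave 2.13 ± 0.38 (0.0174; lost without P 1, P 3 or E+P 2, up to 0.0568), from 13.6 to 27.2 in P and from 56.8 to 96.7 in E+P. It was the only one of 19 cholesterol synthesis genes to pass, and its second probe set gave 0.07; Sqle gave 0.64 (0.125) and Insig1 -0.70 (0.267).

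**Figure D3:**
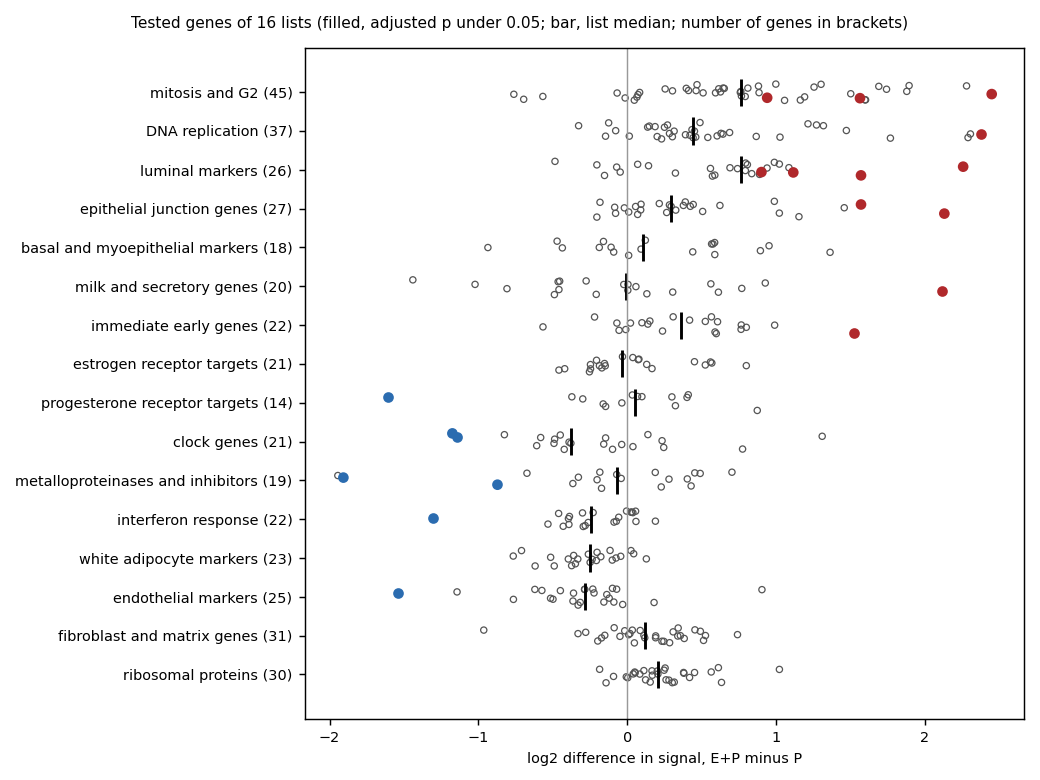
Log2 difference E+P minus P for the tested genes of 16 lists (points; filled where adjusted p was under 0.05; bars, list medians; number of genes in brackets). Medians are 0.764 for mitosis, 0.443 for DNA replication, 0.768 for luminal markers, -0.378 for clock genes and -0.0315 for estrogen receptor targets.

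The hormone receptors and the genes usually read as their targets had medians near that of all genes. Of 21 tested estrogen receptor targets 0 passed by limma and 3 had an unadjusted p under 0.05, with a median of -0.0315, 10 above 0 and 11 below; the median was -0.122 without P 3 and 0.022 without P 4. Myc, Gata3, a luminal factor, and Ccnd1 gave 0.80, 0.56 and 0.45, Igf1 gave -0.25, and Tff3, a mucosal trefoil peptide, 0.17 (adjusted p from 0.298 to 0.914). Of 15 hormone receptors and coregulators 0 passed by limma and 0 had an unadjusted p under 0.05. Their median was -0.0819, with 2 above 0 and 13 below. Esr1 measured 706, 597, 1003 and 691 in P and 918, 544, 711, 665 and 617 in E+P. The groups overlapped (-0.11 ± 0.19, adjusted p = 0.876, and 0.04 without P 3). A second Esr1 probe set gave -0.43 (0.736). Cited1, a cofactor of the estrogen receptor in luminal cells, gave -0.15 ± 0.23 (0.855), and Stat5a, which carries the prolactin signal, 0.13 ± 0.12 (0.736). Their second probe sets gave -0.59 (0.234) for Cited1 and 0.14 (0.769) for Stat5a. Pgr, Greb1, Tnfsf11, Krt14, Csn2 and Wap are on the arrays but were not among the genes tested, Areg and Prlr were not matched by symbol, and these 8 are not analysed here.

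Of 14 progesterone receptor targets 1 fell and none rose, and the median of 0.0523 changed sign to -0.014 without P 4 and -0.037 under median scaling. The gene that fell was Zbtb16, a zinc finger factor induced by progesterone and by glucocorticoids. It measured 283, 394, 909 and 596 in P and 92.1, 217, 151, 210 and 180 in E+P. P 3 was the highest and every P animal was above every E+P animal (-1.61 ± 0.35, adjusted p = 0.0463). A second probe set gave -1.02 and missed the threshold (0.0783). The Zbtb16 call was among the least firm. It was lost without any animal but P 1 and E+P 4 (adjusted p up to 0.147). Fkbp5, a chaperone that the same receptors induce, gave -0.16 ± 0.29 (0.886; 0.13 without P 3), Klf9, a target of both, -0.37 (0.84), and Id4, an inhibitor of differentiation, 0.87 (0.087).

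Timp4 and Timp3, inhibitors of the metalloproteinases that break down matrix, fell. Of 19 metalloproteinases and inhibitors these 2 fell and none rose (0.123% of all genes fell). Timp4 measured 956, 1433, 1311 and 2293 in P and 635, 332, 279, 426 and 316 in E+P. Each E+P animal was below each P animal (-1.91 ± 0.24, adjusted p = 0.00102). Timp3 measured 1118, 1196, 1558 and 1486 in P and 828, 616, 843, 693 and 672 in E+P, again without overlap (-0.87 ± 0.12, 0.00231). Both calls held without any of the 9 animals, while in a fit to these 9 animals alone Timp3 was at an adjusted p of 0.0523. In V, E and E+P CFP, Timp4 lay between 669 and 1682 and Timp3 between 847 and 1119, so that the 5 E+P glands were the lowest of all 20 samples for both genes. Timp1 gave 0.49 (adjusted p = 0.537), Timp2 -0.17 (0.853), and Mmp14, a membrane-bound metalloproteinase, 0.40 (0.465).

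The clock genes Dbp and Nr1d1 fell. Dbp, a transcription factor that the clock drives directly, measured 330, 372, 473 and 330 in P and 170, 112, 202, 215 and 148 in E+P (-1.17 ± 0.22, adjusted p = 0.019). Nr1d1, the repressor REV-ERB alpha, measured 357, 300, 254 and 319 in P and 105, 93.0, 177, 178 and 167 in E+P (-1.14 ± 0.21, 0.0202). For both genes every E+P animal was below every P animal. Arntl (BMAL1), which Nr1d1 represses, differed the other way without passing, from 31.8, 16.7, 41.9 and 25.8 in P to 69.1, 62.0, 79.0, 62.2 and 70.5 in E+P (1.31 ± 0.29, 0.0513), also without overlap. Over all 21 clock genes 2 fell and none rose (0.123% of all genes fell). Their median was -0.378, and 15 were below 0 (5927 of all 12234 genes were). The median was -0.171 without P 1, -0.197 without E+P 3 and -0.216 without E+P 4. Per2, Per3, Nr1d2 and Tef, which share their phase with Dbp, gave -0.83, -0.61, -0.58 and -0.49 (adjusted p from 0.145 to 0.315), while Cry1 and Clock gave 0.04 and -0.10. The labels do not give the hour at which glands were collected, and its part in these differences was not tested. The Dbp call was lost without P 3, E+P 2 or E+P 5 (up to 0.0833) and the Nr1d1 call without P 1, P 4, E+P 1 or E+P 2 (up to 0.0706), so that both were lost without E+P 2. In V, E and E+P CFP, Nr1d1 lay between 200 and 434 and Dbp between 152 and 304.

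**Figure D4:**
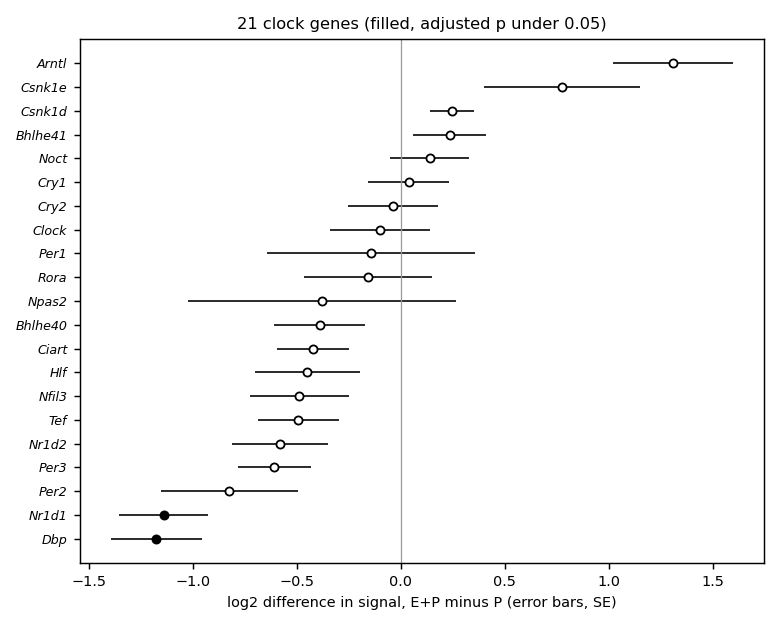
Log2 difference E+P minus P of the 21 tested clock genes with its standard error (bars); filled points passed an adjusted p of 0.05. Dbp and Nr1d1 lie lowest at -1.17 and -1.14, and Arntl highest at 1.31.

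Genes of fat and vessels were lower in most cases, mostly short of the threshold. Of 25 endothelial markers 1 fell and none rose (0.123% of all genes fell), with a median of -0.286 and 23 below 0. The gene that fell was Rbp7, a retinol-binding protein of endothelium and fat. It measured 781, 867, 644 and 634 in P and 370, 222, 324, 241 and 150 in E+P, without overlap (-1.54 ± 0.22, adjusted p = 0.00229), and passed without any of the 9 animals. Cdh5, the cadherin of endothelial junctions, gave -0.62 (0.172), Cd93 -0.51 (0.186), and Pecam1, a pan-endothelial marker, -0.22 (0.813). Of 23 white adipocyte markers 0 passed by limma and 7 had an unadjusted p under 0.05, with a median of -0.249 (-0.386 without P 3) and 20 below 0. Over all 12234 genes, 1566 had an unadjusted p under 0.05 and 5927 were below 0. Adipoq, the adipokine adiponectin, gave -0.49 (0.125), Lpl, the lipase that brings fatty acids to adipocytes, -0.62 (0.0778), Fabp4 -0.40 (0.133) and Lep, leptin, -0.18 (0.782). Rarres2, the adipokine chemerin, fell from 1217, 1099, 1010 and 1390 to 631, 338, 657, 667 and 550 (-1.08 ± 0.19, 0.0136), and passed without any of the 9 animals but not in a fit to these alone (0.0672). The mean deviation of the adipocyte list ran from -0.20 to 0.22 in P and from -0.57 to -0.04 in E+P, with overlap, and that of the endothelial list from -0.21 to 0.34 and from -0.49 to -0.12. The luminal list ran the other way in these animals, and its part in these falls was not tested.

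The remaining falls were of mixed kind. Ifi27l2a, an interferon-inducible gene, measured 2341, 2688, 2674 and 3653 in P and 1175, 920, 1305, 1487 and 897 in E+P. Its groups lay far apart (-1.30 ± 0.25, adjusted p = 0.0202; lost without P 3, P 4, E+P 2 or E+P 5, up to 0.0723). It was the only one of 22 interferon response genes to pass (median -0.245; -0.101 without E+P 5, -0.122 without P 4 and -0.159 without P 3), Irf7 giving -0.39 and Isg15 0.06. H2-D1, an MHC class I gene whose probe set can match its relatives, fell by 0.46 on the log2 scale, from between 9352 and 10217 in P to between 6291 and 7453 in E+P (adjusted p = 0.0411), a call lost without any of the 9 animals (up to 0.129). Beside these, the 28 lymphocyte and plasma cell markers had a median of -0.53 (from -1 without P 4 to -0.188 without P 2) with 0 past the threshold by limma and 2 at an unadjusted p under 0.05, and their mean deviation ranged widely in both groups: P 2, P 3, E+P 2 and E+P 4 averaged 0.81, 0.70, 0.67 and 0.62, and P 4, E+P 1, E+P 3 and E+P 5 averaged -1.18, -1.12, -1.07 and -1.19. The part of lymphocytes in the H2-D1 and Ifi27l2a falls was not tested. Kcnk12, a potassium channel subunit, measured 482, 519, 290 and 145 in P and 55.3, 32.6, 52.8, 31.7 and 126 in E+P (-2.62 ± 0.50, 0.018; lost without P 1, P 2, P 3 or E+P 2, up to 0.0706). Gpr146, a receptor of the G protein-coupled family, fell from between 753 and 933 to between 413 and 567 (-0.69 ± 0.12, 0.0103; 0.0672 in a fit to the 9 animals alone), and C9orf72, a regulator of autophagy, from between 443 and 510 to between 191 and 326 (-0.90 ± 0.16, 0.0174; lost without P 3 or E+P 2, up to 0.0568). Btnl9, of the butyrophilin family, gave -0.73, Prr5l, a partner of the mTORC2 kinase complex, -0.78, and 6430571L13Rik -1.58; each call was lost without 7 of the 9 animals in turn, with adjusted p up to 0.108, 0.129 and 0.129.

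Estrogen was given at the same dose without progesterone in E, and E against V shares no animal with the comparison above. Of the 49 genes that rose, 34 were higher in E than in V (50% of all genes tested were), with a median of 0.249, and 2 passed there in the same direction (0.213% of all genes passed in E against V). Of the 15 that fell, 10 were lower in E than in V, with a median of -0.0757. None of the 15 passed as lower, while Zbtb16 passed as higher. Pbk was among the genes alike in both settings: V measured 28.6, 28.6, 32 and 29.5 and E measured 117, 167, 131 and 151 (2.24, adjusted p = 0.00743), against 2.45 with progesterone. The probe set without a symbol gave 4.87 (0.00116), against 4.06. Uhrf1 gave 1.33 (0.142) and Mki67 1.43 (0.164), and their interactions, the difference between both responses, did not pass (1.05, adjusted p = 0.42, and 0.26, 0.909).

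**Figure D5:**
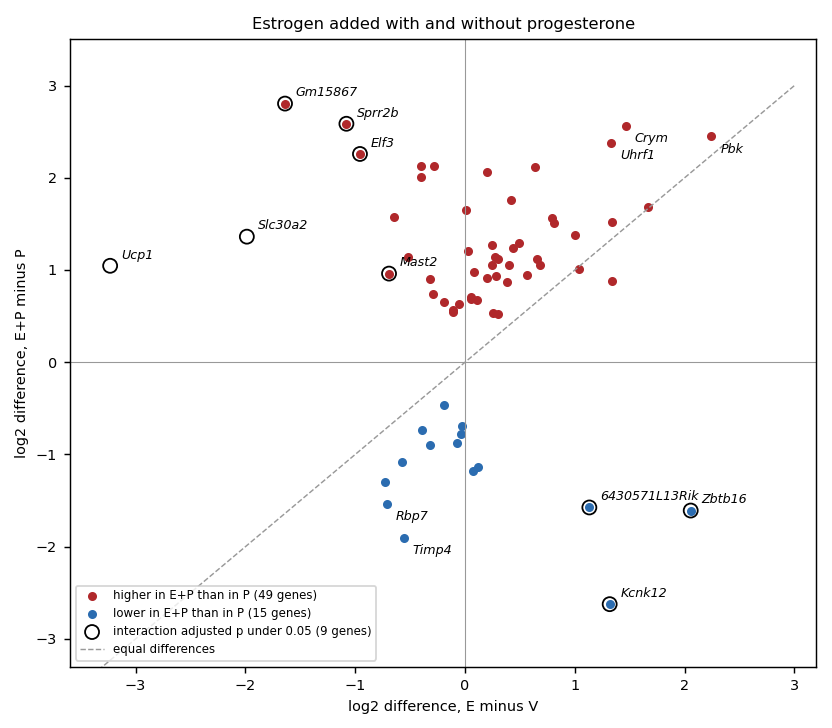
Log2 difference E+P minus P (vertical) against E minus V (horizontal) for the 49 genes higher and 15 genes lower in E+P than in P, with the 9 genes whose interaction passed circled; the dashed line marks equal differences. Zbtb16 lies at 2.06 without and -1.61 with progesterone, and Elf3 at -0.96 and 2.26.

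The response differed with progesterone for 17 of 23067 probe sets (0.0737%) and 9 of 12234 genes (0.0736%) by the interaction test in limma. Zbtb16 had the smallest adjusted p: V measured 195, 137, 156 and 81.0 and E measured 570, 597, 412 and 719, so that it was higher with estrogen alone (2.06, adjusted p = 0.0185) and lower when estrogen joined progesterone (interaction -3.66 ± 0.50, 0.00994). Its second probe set gave an interaction of -2.37. Kcnk12 and 6430571L13Rik had interactions of the same sign, -3.94 (adjusted p = 0.028) and -2.71 (0.028). Their differences E minus V did not pass (1.32, adjusted p = 0.311, and 1.13, 0.204). A second 6430571L13Rik probe set had an interaction of -0.18 (0.951) and a difference E+P minus P of -0.24 (0.891). Elf3 had an interaction of the other sign, with signals from 200, 205, 108 and 93.7 in V to 45.5, 45.1, 80.3 and 177 in E, a difference that did not pass (-0.96, adjusted p = 0.319), against the rise in E+P over P (interaction 3.21 ± 0.53, adjusted p = 0.0138). The second Elf3 probe set had an interaction of -0.20 (0.843). In the first Elf3 probe set the 4 P animals stood below the 4 V animals, and the E+P animals were near the level of V 1 and V 2. Sprr2b and Gm15867 had interactions of 3.67 (0.0369) and 4.44 (0.0122). Gm15867 was at the floor in 2 E animals and 2 P animals. Mast2, a microtubule-associated kinase, had an interaction of 1.65 (0.028), with 0.94 (0.719) in its second probe set. Ucp1, the uncoupling protein of brown fat, had one of 4.28 (0.0132): V measured 175, 279, 170 and 170, E measured 30.2, 13.6, 32.3 and 13.6, and P and E+P ran from 42.4 to 145 and from 44.7 to 446. Its drop in E against V passed (-3.23, adjusted p = 0.00743), and E+P against P did not (1.05, 0.403). Slc30a2, a zinc transporter of the gland, was at the floor in all 4 E animals and in 3 of 4 P animals (interaction 3.35, adjusted p = 0.0184). With the floor at the 40th percentile its interaction was 1.54 (0.105). Fkbp5 resembled Zbtb16 in E against V (1.97, adjusted p = 0.00743) with an interaction short of the threshold (-2.14, 0.0576). With each of the 17 animals of the 4 groups left out in turn, Gm15867, Zbtb16, Ucp1 and Slc30a2 kept their interaction call. Elf3 lost it without V 2. 6430571L13Rik lost it without V 2, E 2, E 4, P 1 or P 3 (up to 0.0815), and Kcnk12 without V 1, V 2, E 4, P 1, P 2 or E+P 4 (up to 0.0781). Sprr2b and Mast2 lost it without 10 of the 17 each, from V, E, P and E+P alike (Mast2 up to 0.0789).

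V glands against the epithelium-free pads, which share no animal with the comparison either but differ in hormones too, show which of the called genes were higher where epithelium was present. Of the 49 genes that rose, 37 were higher in V than in the pads (6242 of all 12234 genes were), with a median of 0.562. Of the 49, 17 passed there as higher and 2, Mvd and Egr2, as lower (3.29% and 0.826% of all genes did). Krt7, Cldn4, Elf3, St14 and Cdcp1 gave 4.70, 3.81, 2.68, 3.56 and 4.29, and Cdcp1 and Krt7 were at 17.8 or less in all 3 pads. Mvd and Egr2 went the other way. Mvd was higher in the pads, at 105, 85.9 and 92.5, than in V, and Egr2 measured 198, 147 and 266 in the pads and from 62.7 to 80.5 in V. Of the 15 that fell, 4 were higher in V than in the pads, 1 of them past the threshold (Rbp7, 1.20, adjusted p = 0.00633), and the median was -0.0537.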

How the data were processed

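Total RNA of each animal was labelled and hybridised to 3 Affymetrix array types, giving 60 arrays. The authors deposited linear signal intensities from MAS5 per the labels; neither label nor header names a version or setting of it. Each array was scaled to a common 2% trimmed mean within its type, values were floored at the 25th percentile of the type and log2 values were taken, and a probe set was tested where at least 3 of 20 animals exceeded the 50th percentile. Folds of genes at the floor are therefore bounds. Intensities carry no read depth, so the number of arrays limits the precision.

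A model with 5 group means was fitted to all probe sets in limma 3.58.1 (R 4.3.3; empirical Bayes with the prior variance following mean intensity, array types fitted apart), and p-values were adjusted by Benjamini-Hochberg over all 23067 probe sets. A gene is represented by 1 probe set, type A before B before C, then a plain suffix, then the highest mean. Of 36701 non-control probe sets, 29131 had 1 gene symbol, 724 several and 6846 none; no gene was named from the latter. On simulated data with these group sizes the same steps recovered 48% of 2-fold and 75% of 4-fold changes. The simulated noise was independent between probe sets, without shifts shared by all genes of an animal. In the data, the omission of 1 animal moved the count to between 19 and 107, so these shares need not hold here.

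A plain suffix was preferred only within an array type. Zbtb16 is therefore represented by a type A probe set with a special suffix, and its second probe set, on type C, has the plain one. The text names, among genes past the threshold without overlap, the top 15 by size in either direction; from every list holding a call, its leading members by adjusted p (at most 4); the top 10 by interaction p; and some hormone, keratin, milk and fat genes on a fixed list. Other list members named in the text were picked after their values were seen, to show the spread within a list. The comparison and the gene lists were chosen with earlier results of these data known. Promoters are RefSeq windows on GRCm38.p6. Other scalings, floors, filters, variance models, a block on the replicate number and the omission of each animal were tried.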

Additional observations from a re-analysis of the deposited data

Results flagged for a closer look

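In 238 groups of 4 or 5 animals tested for a single distant animal, 16 had one, and chance gives about 1 in 20. On the log2 scale P 4 stood high for Gm15867 at 6.144 (others 4.307 to 4.426), P 1 for Crym at 4.248 (others at the floor) and P 2 for Elf3 at 6.421 (others 4.858 to 5.079). E+P 2 stood low for Rarres2 at 8.399, Btnl9 at 8.851 and Gpr146 at 8.689, and for these 3 genes all E+P animals were below all P animals. E+P 5 stood low for the immunoproteasome genes Psmb9 at 7.957 and Psmb8 at 9.223. P 3 stood low for Adam15 at 6.318, and P 2 for Xdh at 7.46. For Slc30a2, P 2 stood barely above the floor at 4.343 and E+P 4 was at the floor, 4.307, below the other E+P animals. Among mean deviations of lists, P 2 was low for progesterone receptor targets at -0.03445, P 1 high for macrophage markers at 0.699, E+P 4 low for heat shock proteins at -0.1752 and P 3 low for smooth muscle and pericyte markers at -0.2692.

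The response to estrogen differed between animals with and without progesterone, by the interaction test in limma, for 9 genes. The interaction was positive for Gm15867 at 4.444, Ucp1 at 4.278, Sprr2b at 3.666, Slc30a2 at 3.348, Elf3 at 3.215 and Mast2 at 1.653. It was negative for Kcnk12 at -3.941, Zbtb16 at -3.664 and 6430571L13Rik at -2.707.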

How the results depend on the processing

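Against 83 probe sets (64 higher, 19 lower), 64 genes and 17 interactions, median scaling gave 49 (33 higher, a share of 67.3% in place of 77.1%), 37 genes and 28 interactions. No filter gave 52 (38 higher) and 33 genes, no intensity trend 55 (41 higher) and 42 genes, and a floor at the 40th percentile 97 higher. An offset of 32 gave 28 interactions and array weights 36. A fit to the 9 E+P and P animals alone gave 25 (22 higher, 3 lower) and 22 genes, and 22 of 36 named calls were lost. The replicate block gave 5 by limma, 5 higher and 0 lower, and 4 genes. Uhrf1 and Wfdc18 were kept among the 36 and 34 were lost, with Timp4 at an adjusted p of 0.0942 and Timp3 at 0.15. E+P 5 has no P animal of its number, so it does not inform the difference in this fit. Same-numbered animals deviated together little (correlations from -0.045 to 0.086), though P 2 and P 3 matched the E+P animal of their own number best. Whether a shared number marks a shared batch was not tested.

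With each animal left out, the count ran from 19 (E+P 2) to 107 (E+P 4), with 14 to 78 higher, 5 to 29 lower, 14 to 76 genes and 10 to 48 interactions; without P 3, E+P 3 or E+P 5 it was 34, 38 and 43. Leaving out V 3 gave 42 higher, and E 3 gave 54 and 41 higher. No filter lost 19 of these calls, array weights 10, median scaling 8, no intensity trend 7 and a floor at the 10th percentile 5. Of the 36, 11 held without each of the 9 compared animals and 10 under all other settings but the block. Wnt4 changed sign under median scaling (-0.03679), the block (-0.05365) and without P 4 (-0.0528), E+P 1 (-0.0194), E+P 2 (-0.01975) or E+P 5 (-0.05365), its range being -0.05365 to 0.2315. Without P 3, Esr1 was at 0.03765 (-0.1118 with all animals) and Fkbp5 at 0.1308 (-0.1612); with other animals left out their lowest values were -0.2199 and -0.3415. Dim genes are limited by the floor: Crym missed the threshold with the floor at the 10th percentile. The cause of these shifts was not tested.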

Other observations

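These further lists held no gene past the threshold by limma in E+P against P, and are given as values. Over all 12234 genes, 6307 were above 0 and 1566 had an unadjusted p under 0.05. Of 30 ribosomal protein genes 26 were above 0, with a median of 0.204 and 9 at an unadjusted p under 0.05. Of 28 genes of the nucleolus and ribosome assembly 20 were above 0, with a median of 0.183 and 6 at an unadjusted p under 0.05. The 31 fibroblast and matrix genes had a median of 0.118 (3 at an unadjusted p under 0.05), and the 24 genes of protein folding in the endoplasmic reticulum -0.151 (4). The 56 genes of oxidative phosphorylation had a median of -0.0389 (4), the 22 of fatty acid synthesis 0.029 (3) and the 24 p53 targets -0.0188 (3). Macrophage markers had a median of -0.219 over 17 genes (1), and P 1 was the highest animal for them. Skeletal muscle markers, a sign of tissue beside the gland, had a median of 0.226 over 19 genes (0).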
